A study of Mus musculus with 10 samples.

Results

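The 10 genes described here are the Gadd45 family (Gadd45a, Gadd45b and Gadd45g) and 7 genes of base excision repair (Tdg, Mbd4, Smug1, Neil1, Apex1, Xrcc1 and Parp1). They were picked by gene symbol from a table of ATAC-seq signal over 21965 genes, and each symbol matched 1 row. ATAC-seq measures open chromatin through a transposase that inserts sequencing adapters where DNA is accessible. The cells were mouse embryonic fibroblasts (MEFs) from embryos of day 13.5, and all conditions were infected with pMXs retroviruses and kept in mESC medium. The labels give strain ICR, while the protocol names MEFs carrying a GFP transgene under the Oct4 promoter. How these statements relate was not resolved. Single viruses carried Sox2, Klf4, Oct4 or a mutant Oct4 named L80A (Oct4-L80A). A mixture of Sox2, Klf4 and Oct4 is called SKO, and SKO-L80A is the same mixture made with mutant Oct4. SKO+shBrg1 adds a hairpin that targets Brg1, a chromatin remodelling ATPase, to SKO. SKO-L80A+Vc adds 50 µg/ml of vitamin C, and SKO-L80A+Ga adds Gadd45a, to SKO-L80A. Flag is the control virus. Each condition had 1 labelled library of about 50000 cells and 2 columns in the table. The sources used here do not say how the 2 columns relate, so they were counted as 1 sample. No replicate error is given and no test was made, and differences are given as sizes. The sources used here do not give the time after infection.

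Gadd45 proteins are small, acidic stress proteins without enzyme activity that bind kinases of the p38 and JNK pathways, cell cycle regulators and DNA repair factors. In base excision repair a glycosylase cuts out a damaged or modified base, an endonuclease nicks the empty site, and a polymerase and ligase held by a scaffold protein fill and seal it. This pathway also removes some oxidised forms of methylcytosine once TET enzymes have made them. Gadd45a has been proposed to bring TET1, TDG and repair factors to methylated promoters. Vitamin C is known to raise TET activity.

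A shared value was found for 3 of the 10 genes, which limits what their signal can say. Apex1 (ENSMUSG00000035960; chromosome 14, 50924949 to 50927188), the main abasic site endonuclease, had the same signal as Osgep (chromosome 14, 50915374 to 50924893), a tRNA modification gene whose start lies 56 bases away, within 1% in 19 of 20 columns. Xrcc1 (chromosome 7, 24546699 to 24573438), the scaffold of single-strand break repair, shared its signal within 0.0342% in every column with Pinlyp. The start of the Pinlyp promoter entry is 694 bases away, while its annotated span (chromosome 7, 24541654 to 24546668) ends nearer to the Xrcc1 start. Mbd4 (chromosome 6, 115840697 to 115853400), a glycosylase that removes thymine from mismatched CpG sites, shared its signal within 0.168% with Ift122, a gene of cilium transport whose annotated start (chromosome 6, 115853379) lies within the Mbd4 span. The values of these 3 genes therefore cannot be told apart from those of their neighbours.

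The sharing followed the distance between gene starts in the whole table. Among neighbouring genes with starts under 250 bases apart, 286 of 298 pairs had the same signal, taken as a median difference over the columns of at most 1%. The share was 75% for starts 1000 to 2000 bases apart, 33.0% at 2000 to 5000, 4.81% at 5000 to 20000 and 0.330% beyond. The signal of a gene was thus read as that of the region around its start, not of its whole body, although the sources used here do not state the window.

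**Figure D1:**
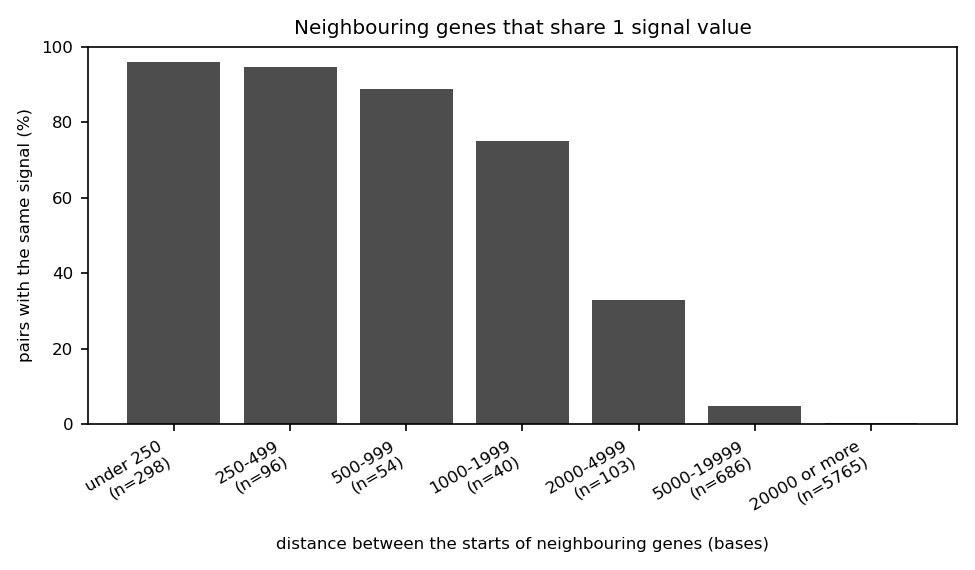
Share of neighbouring gene pairs with the same signal (y axis, percent; median difference over 20 columns of at most 1%) against the distance between their starts (x axis, bases; n is the number of pairs). The share is 95.97% under 250 bases and 0.330% from 20000 bases on.

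The starts of the Gadd45 genes are shown because their signal carries the larger differences below, and that of Apex1 because 2 genes share it. Each sequence is from RefSeq, build GRCm38.p6 (the assembly of mm10), read 5′ to 3′ on the strand of the gene from 250 bases before the start to 50 after it. The windows are chr6:67037358-67037657, minus strand; chr10:80929841-80930140, plus strand; chr13:51846425-51846724, plus strand; and chr14:50924699-50924998, plus strand. Capitals mark matches on either strand to the GC box GGGCGG, the CCAAT box, the AP-1 site TGANTCA or the octamer ATGCAAAT.
Gadd45a: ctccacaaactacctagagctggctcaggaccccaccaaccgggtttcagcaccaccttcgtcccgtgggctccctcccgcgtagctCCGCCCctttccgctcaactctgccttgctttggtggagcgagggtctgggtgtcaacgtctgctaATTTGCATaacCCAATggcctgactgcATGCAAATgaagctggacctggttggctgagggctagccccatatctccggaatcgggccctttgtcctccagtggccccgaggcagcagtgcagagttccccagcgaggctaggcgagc
Gadd45b: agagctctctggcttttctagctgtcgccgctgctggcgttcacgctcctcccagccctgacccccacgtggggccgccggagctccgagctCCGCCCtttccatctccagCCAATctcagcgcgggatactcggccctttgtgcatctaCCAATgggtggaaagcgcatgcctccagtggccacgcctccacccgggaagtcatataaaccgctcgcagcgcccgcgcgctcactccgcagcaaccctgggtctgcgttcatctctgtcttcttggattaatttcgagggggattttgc
Gadd45g: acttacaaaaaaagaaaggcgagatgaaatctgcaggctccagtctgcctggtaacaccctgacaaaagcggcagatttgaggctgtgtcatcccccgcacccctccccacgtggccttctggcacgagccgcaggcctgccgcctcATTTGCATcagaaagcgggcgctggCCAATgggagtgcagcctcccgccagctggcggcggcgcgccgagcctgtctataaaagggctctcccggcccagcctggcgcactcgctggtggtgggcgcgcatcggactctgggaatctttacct
Apex1: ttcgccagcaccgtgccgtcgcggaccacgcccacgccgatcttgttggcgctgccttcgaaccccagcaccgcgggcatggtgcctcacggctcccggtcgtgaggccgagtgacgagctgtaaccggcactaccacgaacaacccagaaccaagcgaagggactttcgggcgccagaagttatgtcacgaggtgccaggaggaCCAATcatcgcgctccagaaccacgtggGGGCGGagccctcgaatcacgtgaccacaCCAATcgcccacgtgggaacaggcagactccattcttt

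The octamer, the sequence that POU factors such as Oct4 recognise, was found in the promoters of 2 of the 10 genes, against 1.74% of 32851 mouse promoters of the same length. Gadd45a had it at 97 and 70 bases before the start, on opposite strands and on either side of a CCAAT box at 86. Gadd45g had it at 103 bases before the start, followed by a CCAAT box at 78, and Gadd45b had CCAAT boxes at 139 and 100 and no octamer in the window. In the human GADD45A promoter, octamer and CCAAT elements are known to be bound by Oct-1 and NF-Y. The CCAAT box occurred in 8 of the 10 promoters (37.4% of all), the GC box in 6 (35.7%) and the AP-1 site in 0 (7.81%), and no matches overlapped in the 10 promoters. The Smug1 entry begins 5655 bases from the start of its annotated span, while the 9 others begin within 383 bases, so its window may not be the one measured. Without it the CCAAT box occurred in 7 of 9 promoters, the GC box in 5 and the octamer in 2. Of the 10 promoters, 9 had more CpG dinucleotides than the median of all promoters, which is 7, with 31 in Apex1, 24 in Gadd45b, 21 in Gadd45g and 14 in Gadd45a. A match describes the letters only, and binding was not measured.

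Several facts of the libraries bear on these genes. Column sums ran from 112439 to 370390, and the median of all genes differed between conditions, by 0.97 in column 1 and 0.09 in column 2 for SKO against Flag on the log2 scale. Values below are therefore scaled signal, the deposited signal divided by the column's median ratio to the geometric mean of all columns. That ratio was taken on signal plus 0.138. Differences are log2 differences of signal plus 0.138 relative to the median of all genes. They were taken within column 1 and within column 2 and averaged. A gene was called higher or lower at 2-fold or more, where the higher mean deposited signal of the compared conditions reached 6.92, the median of the table. The library labelled Oct4 had a Sox2 signal of 62.9 and 55.2, against 2.73 and 5.12 in Flag, which its label does not name. The comparisons with this library are given as labelled, and the part of Sox2 in them was not tested. Of 10 fibroblast markers, 7 or 8 reached the minimum in every condition, with a summed scaled signal of 130 to 159 in the conditions other than Flag and 181 in Flag. Of the 4 markers each of macrophages, endothelium, epithelium and pluripotent cells, at most 1 did in any condition.

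The number of the column went with the signal of both Gadd45a and Gadd45b. Gadd45a was higher in column 2 than in column 1 in all 10 conditions, by a median of 1.11-fold, as were 7.34% of the 11447 genes whose mean deposited signal reached the minimum. Gadd45b was lower in column 2 in all 10 conditions, as were 2.21% of those genes, with column 1 a median of 1.33-fold above column 2. For Gadd45b the median difference lay at percentile 0.332 of the same genes. The sources used here do not say what the column numbers stand for, and their part in the results was not tested; both columns are given throughout.

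**Figure D2:**
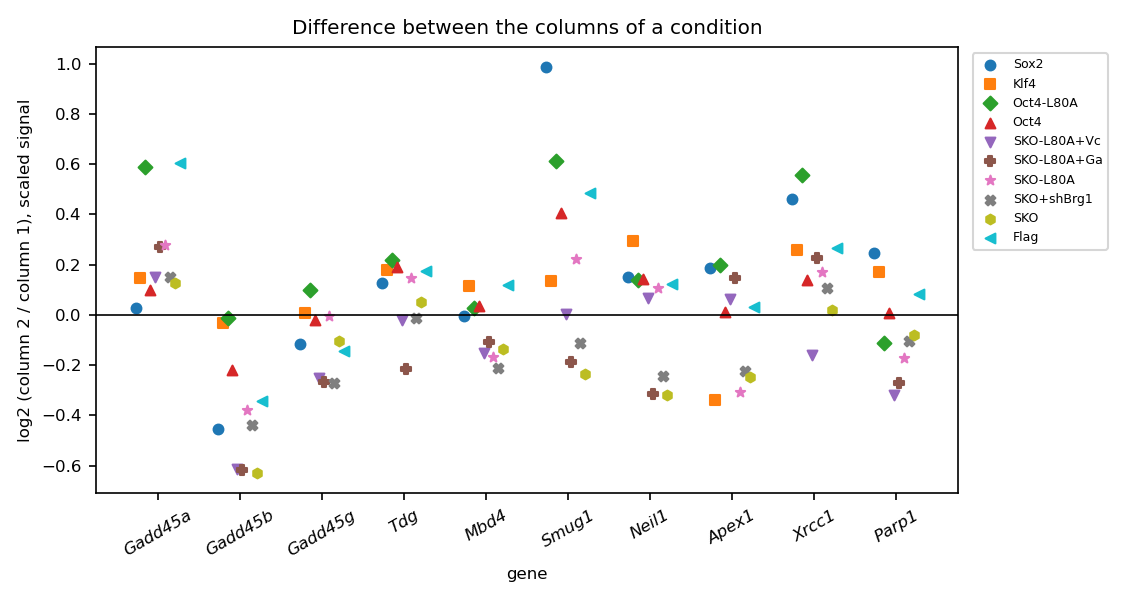
Log2 ratio of column 2 to column 1 of the scaled signal (y axis) for each gene (x axis), 1 mark per condition. All 10 marks lie above 0 for Gadd45a, at a median of 0.15, and below 0 for Gadd45b, at a median of -0.41.

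Across the 10 conditions, the condition means of each gene lay within 1.78-fold of one another. No member passed the 2-fold rule in any of the 10 comparisons, although all 10 reached the minimum signal in each. Such calls were rare among all genes at the minimum signal too, at most 2.2% higher and 0.392% lower in any comparison. The absence of calls therefore does not set the 10 genes apart from other genes. The ratio of the highest to the lowest condition mean was 1.78 for Gadd45b, 1.52 for Gadd45g, 1.49 for Smug1 and 1.35 for Gadd45a, and between 1.29 and 1.36 for the 6 others. The SD of log2 condition means was 0.23 for Gadd45b, at percentile 88.2 of the 11447 genes. It was 0.10 for Apex1, at percentile 21.3, against a median of 0.13. By this SD, Smug1, Gadd45g and Gadd45a stood at percentiles 75.4, 71.3 and 65.3. Tdg, Mbd4, Neil1, Xrcc1 and Parp1 stood between percentiles 35.2 and 43.8. Among all genes, mean deposited signal stood at percentile 97.5 for Mbd4, 96.1 for Gadd45a and 54.7 for Smug1, the lowest member. These percentiles rank signal around starts and do not compare expression.

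**Figure D3:**
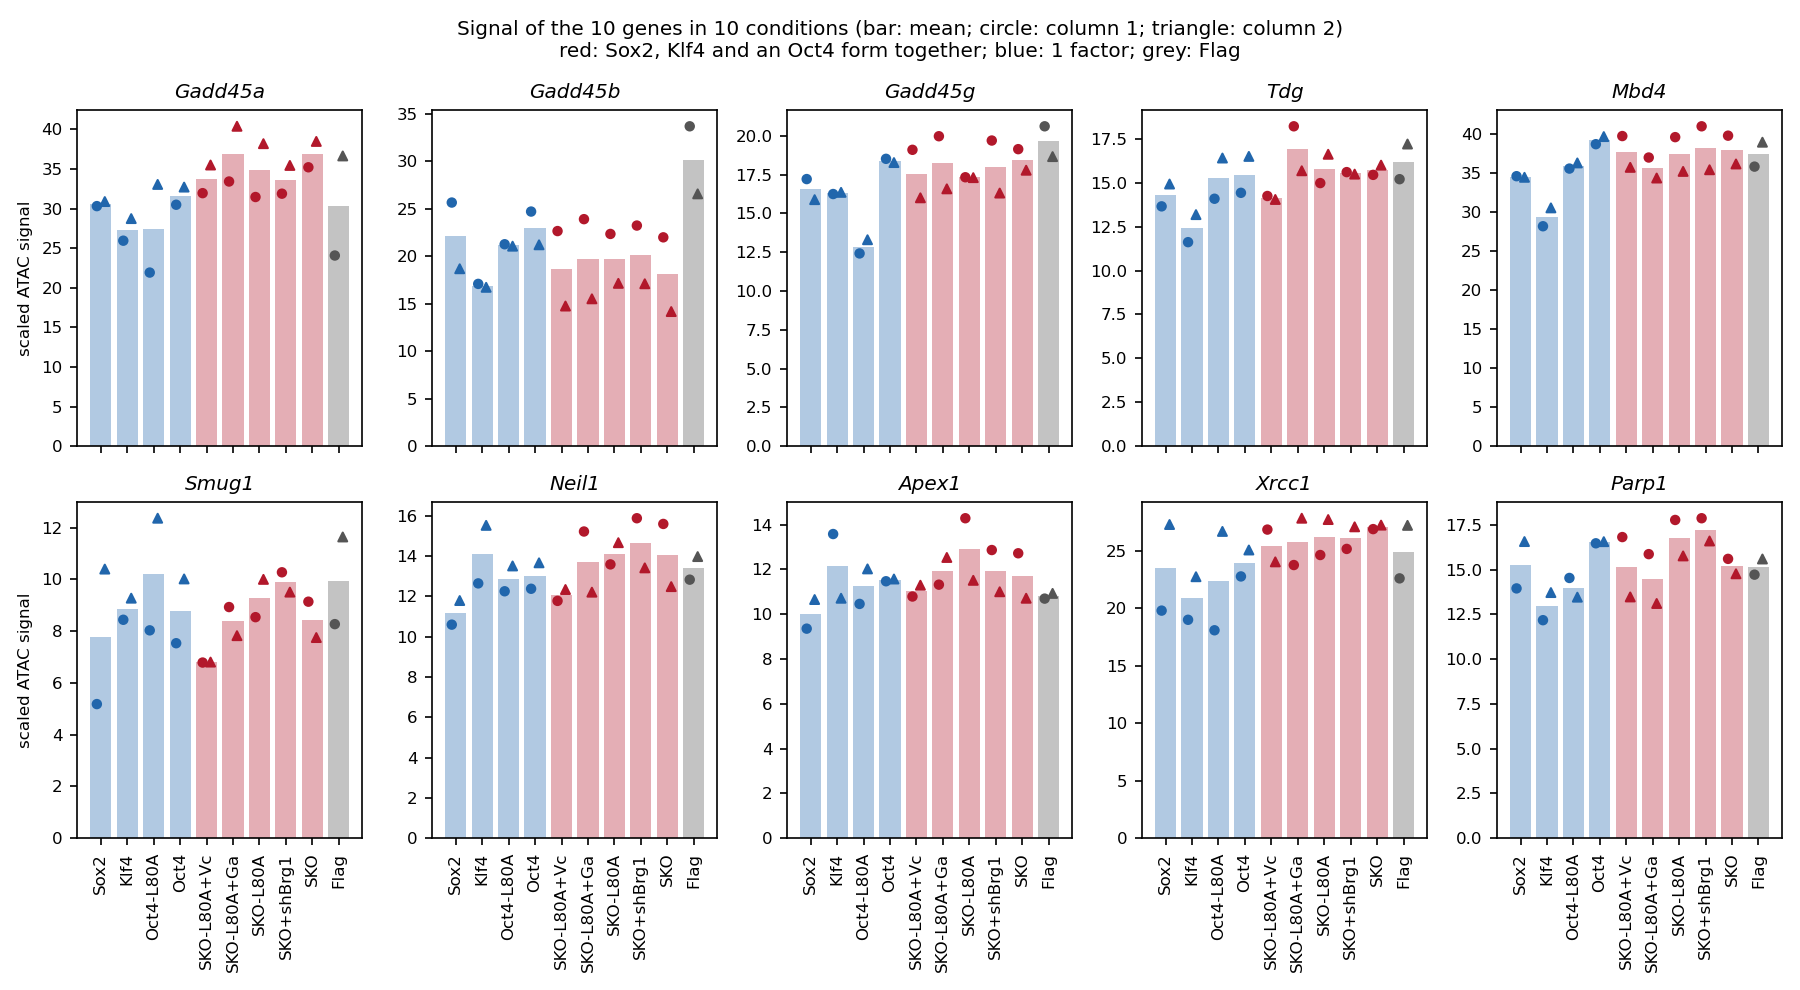
Scaled ATAC signal (y axis, from 0) of each gene in the 10 conditions (x axis). Bars are the mean of both columns, circles column 1 and triangles column 2; for Gadd45b both Flag points, 33.7 and 26.6, lie above all 18 others.

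Gadd45b, a family member induced early by stress and cytokines such as TGF-beta, had less signal with every factor than in Flag (ENSMUSG00000015312; chromosome 10, 80930091 to 80932204). Scaled signal was 25.7 and 18.7 in Sox2, and 17.1 and 16.7 in Klf4. The Oct4 library had 24.7 and 21.2, the Oct4-L80A library 21.3 and 21.1, and the Flag library 33.7 and 26.6. With 3 factors it was 22.001 and 14.2 in SKO, 22.4 and 17.2 in SKO-L80A and 23.2 and 17.1 in SKO+shBrg1. With additions to SKO-L80A it was 22.7 and 14.8 with vitamin C and 23.9 and 15.5 with Gadd45a. Both Flag columns were therefore above all 18 others, whose highest was 25.7, and Flag held that place at 2.18% of genes.

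The size of the Gadd45b difference varied with the factor. It was -0.81 in Klf4 against Flag (-0.93 and -0.68 in the columns), or 1.75-fold lower, and -0.75 in SKO against Flag (-0.64 and -0.87), or 1.69-fold lower. It was -0.54 in Oct4-L80A (-0.75 and -0.33), -0.51 in Sox2 (-0.46 and -0.55) and -0.37 in Oct4 (-0.43 and -0.32). Without centring it was -0.78 in Klf4, -0.70 in Oct4-L80A, -0.60 in Sox2, -0.22 in SKO (0.34 and -0.78) and -0.18 in Oct4, so the order of the factors depends on the scaling. These 5 comparisons share the Flag library, so they are not separate evidence. Among genes at the minimum signal these differences lay at percentile 0.700 in Klf4, 0.361 in SKO, 0.920 in Oct4-L80A, 3.08 in Sox2 and 2.203 in Oct4. The summed fibroblast markers were also higher in Flag than in all other conditions, though not every marker was. Of the 10 markers, 10 were below Flag in Sox2 and SKO, 9 in Klf4 and Oct4-L80A and 8 in Oct4. Most genes at the minimum signal were also below Flag in Sox2, Klf4 and Oct4-L80A, with medians of -0.14, -0.10 and -0.12. Their medians in Oct4 and SKO were 0.05 and 0.07. The markers at the minimum had medians of -0.39 in Sox2, -0.50 in Klf4, -0.23 in Oct4, -0.20 in Oct4-L80A and -0.24 in SKO. Thy1 was 2.18-fold higher in Oct4-L80A than in Flag. The part of the markers in the Gadd45b difference was not tested. In such bulk libraries, fewer cells of a type and less open chromatin per cell cannot be told apart.

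Among the 3-factor conditions the Gadd45b columns overlapped. The difference was 0.15 in SKO-L80A against SKO (0.00 and 0.29), 0.19 in SKO+shBrg1 against SKO (0.10 and 0.28), -0.07 with vitamin C and -0.03 with Gadd45a against SKO-L80A. None of these 4 comparisons had separate columns. Without centring the difference was -0.56 with vitamin C and -0.28 with Gadd45a.

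**Figure D4:**
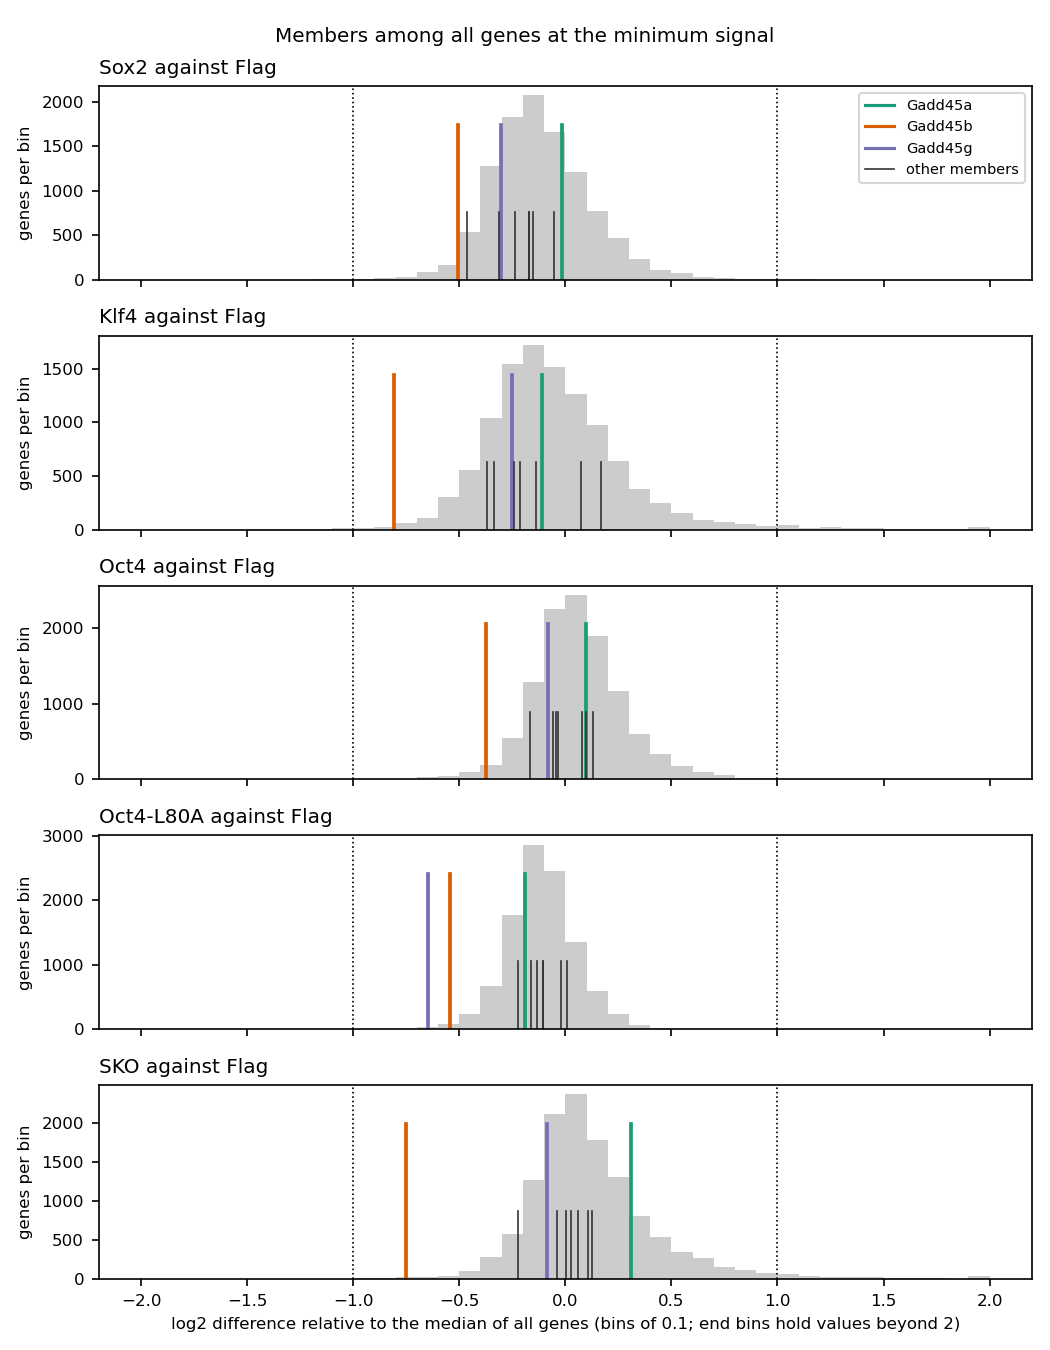
Histograms of the log2 difference from Flag (x axis, bins of 0.1) over all genes at the minimum signal (y axis, genes per bin), with lines at the values of the 10 genes and dotted lines at 2-fold. Gadd45b lies in the lower tail in the 5 panels, from -0.37 to -0.81, and Gadd45g at -0.65 in Oct4-L80A.

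Gadd45g, the family member best known from development and differentiation, had its lowest signal with the Oct4 mutant alone (ENSMUSG00000021453; chromosome 13, 51846675 to 51848475). Scaled signal was 12.4 and 13.3 in Oct4-L80A, 18.5 and 18.3 in Oct4, and 20.6 and 18.7 in Flag. Both Oct4-L80A columns were below all 18 others, whose lowest was 15.9, as at 1.56% of genes. Column 1 of Oct4-L80A had the lowest sum of all columns, and its deposited Gadd45g value, 6.78, was under the minimum. The difference was -0.65 from Flag (-0.81 and -0.48), or 1.57-fold lower, at percentile 0.393, and -0.52 from Oct4 (-0.59 and -0.46), or 1.44-fold lower, at percentile 2.35. Without centring the second was -0.92. Beside the high Sox2 signal of the library labelled Oct4, Gadd45g had 17.2 and 15.9 in Sox2 alone, below both Flag columns and above both Oct4-L80A columns.

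Between the mixtures of 3 factors, the columns of Gadd45g lay nearer to each other. Gadd45g had 17.3 and 17.3 in SKO-L80A against 19.1 and 17.8 in SKO, a difference of -0.09 (-0.17 and -0.02). Whether this differs from the comparison of Oct4-L80A with the library labelled Oct4 was not tested, since each condition has 1 library, and those libraries also differ in Sox2 signal (2.37 and 5.47 in Oct4-L80A, against 62.9 and 55.2). In the other 3-factor conditions it had 19.7 and 16.3 with shBrg1, 19.1 and 16.006 with vitamin C and 19.97 and 16.6 with Gadd45a. Klf4 alone had 16.2 and 16.4.

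Gadd45a, the p53-induced member that was also supplied as a factor, had its highest condition means where 3 factors were given (ENSMUSG00000036390; chromosome 6, 67035096 to 67037407). Scaled signal was 35.2 and 38.5 in SKO, 31.5 and 38.2 in SKO-L80A, 31.9 and 35.5 in SKO+shBrg1, 32.0 and 35.5 in SKO-L80A+Vc and 33.4 and 40.4 in SKO-L80A+Ga. It was 30.3 and 30.9 in Sox2, 26.0 and 28.7 in Klf4 and 30.5 and 32.7 in Oct4. Oct4-L80A had 21.9 and 33.1, and Flag had 24.1 and 36.7. The 5 condition means with 3 factors, 33.7 to 36.9, were above the 5 others, 27.3 to 31.6, a split chosen after the values were seen and found at 8.52% of genes. Column values of these sets overlapped: column 2 of Flag, 36.7, was above column 2 of SKO+shBrg1 and of SKO-L80A+Vc.

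The Gadd45a difference was 0.31 in SKO against Flag (0.52 and 0.10), at percentile 80.1, and 0.84 without centring. It was 0.10 in Oct4 against Flag, where the columns were 0.35 and -0.15, and 0.29 without centring. In SKO-L80A+Ga against SKO-L80A it was 0.08 in both columns, or 1.05-fold, at percentile 89.5, and -0.18 without centring. The deposited signal of Gadd45a was 36.6 and 41.5 in SKO-L80A+Ga, against 37.3 and 52.1 in SKO-L80A. In the single-virus libraries, the row of the supplied factor was high. The Sox2 row had 75.5 and 87.1 with the Sox2 virus, against 2.73 and 5.12 with Flag. The Klf4 row had 166.0 and 145.9 with the Klf4 virus, against 12.6 and 17.8 with Flag. In the SKO-L80A+Ga mixture the Sox2 row had 28.6 and 28.0, and the Klf4 row 45.7 and 45.1. The Gadd45a row, already high in SKO-L80A, showed no such difference in the library labelled as given Gadd45a. Whether vector reads enter these rows was not tested, so delivery of Gadd45a cannot be judged from its row. In Oct4-L80A against Oct4 the Gadd45a difference was -0.24 (-0.50 and 0.01), or -0.64 without centring, and in SKO-L80A against SKO -0.09 (-0.19 and 0.01).

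Among the 4 glycosylase genes, Klf4 had the lowest condition mean at Tdg and Mbd4, vitamin C at Smug1 and Sox2 at Neil1. Tdg (ENSMUSG00000034674; chromosome 10, 82629814 to 82650799) removes thymine and some oxidised forms of methylcytosine opposite guanine. Tdg had 11.6 and 13.2 in Klf4, below all 18 other columns, against 15.2 and 17.2 in Flag. Mbd4 (ENSMUSG00000030322) had 28.2 and 30.6 in Klf4, also below all 18 others, against 35.8 and 39.0 in Flag. The differences were -0.37 for Tdg and -0.34 for Mbd4, at percentiles 12.6 and 15.96, and Klf4 held the lowest place at 10.5% of genes, so such a place was common.

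Smug1 (ENSMUSG00000036061; chromosome 15, 103153290 to 103168939), a uracil glycosylase that also acts on hydroxymethyluracil, had the largest vitamin C difference of the 10 genes. It had 6.78 and 6.80 in SKO-L80A+Vc against 8.54 and 10.0 in SKO-L80A, a difference of -0.41 (-0.30 and -0.52), or 1.33-fold lower, at percentile 2.39, and -0.89 without centring. Its columns did not overlap with those of SKO-L80A and lay below them, as at 31.8% of genes. The other low value was column 1 of Sox2, with 5.18 and 10.4 in Sox2 against 8.27 and 11.6 in Flag. The Sox2 difference of -0.46 rested mainly on that column (-0.72 and -0.21), and the columns overlapped. Smug1 was the member closest to the minimum signal, with deposited values from 3.22 to 15.9.

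Neil1 (ENSMUSG00000032298; chromosome 9, 57142788 to 57148688), a glycosylase of oxidised bases, had 10.6 and 11.8 in Sox2, below both Flag columns, 12.8 and 14.0. The difference was -0.31 (-0.34 and -0.29), at percentile 18.3, and such a separation of the columns was found at 28.3% of genes. With vitamin C it had 11.8 and 12.3, against 13.6 and 14.7 in SKO-L80A, a difference of -0.20 at percentile 19.7, and -0.68 without centring. Its highest condition mean was 14.6 in SKO+shBrg1.

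The genes acting after base removal had condition means within 1.33-fold of one another. Apex1, with Osgep, had 9.35 and 10.7 in Sox2, the lowest condition, and 14.3 and 11.5 in SKO-L80A, the highest, against 10.7 and 10.9 in Flag. Its difference of 0.17 in Klf4 against Flag came from column 1, with 0.38, while column 2 had -0.04. Xrcc1 (ENSMUSG00000051768), with Pinlyp, had 19.0 and 22.7 in Klf4, the lowest condition mean, 26.9 and 27.2 in SKO, the highest, and 22.6 and 27.2 in Flag. As with Gadd45a, the Xrcc1 means of the 5 conditions with 3 factors, 25.4 to 27.1, were above those of the 5 others, 20.9 to 24.9, as at 8.52% of genes. The columns overlapped: column 2 had 24.0 in SKO-L80A+Vc, against 27.3 in Sox2, 26.7 in Oct4-L80A and 27.2 in Flag.

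Parp1 (ENSMUSG00000026496; chromosome 1, 180568891 to 180600999), which senses strand breaks and builds poly(ADP-ribose), had both columns apart in several comparisons. It had 17.9 and 16.6 in SKO+shBrg1 against 15.6 and 14.8 in SKO, a difference of 0.20 (0.22 and 0.18) at percentile 94.0. Both columns were higher there at 11.2% of genes. Parp1 had 14.5 and 13.46 in Oct4-L80A against 16.5 and 16.6 in Oct4, a difference of -0.25 (-0.20 and -0.30) at percentile 19.6, and -0.65 without centring. Both columns were lower there at 31% of genes, so separate columns were common. In SKO-L80A+Ga Parp1 had 15.9 and 13.1 against 17.8 and 15.8 in SKO-L80A, a difference of -0.22 (-0.17 and -0.27) at percentile 7.59, with columns that overlapped, and -0.47 without centring. Klf4 had the lowest condition mean, 12.9.

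**Figure D5:**
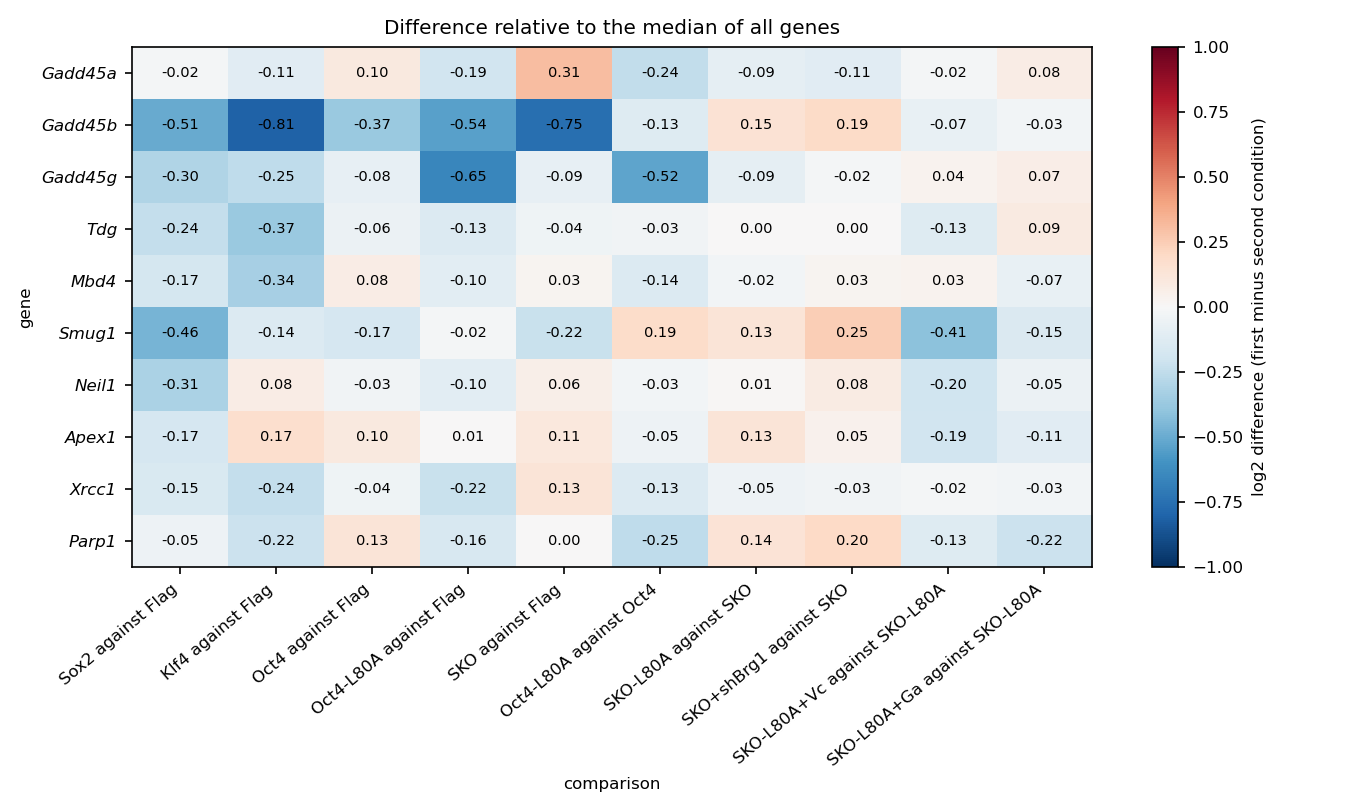
Log2 difference relative to the median of all genes (colour and printed value; first condition minus second) for each gene (rows) in each comparison (columns). No cell reaches 1 in size; the lowest is -0.81, for Gadd45b in Klf4 against Flag, and the highest 0.31, for Gadd45a in SKO against Flag.

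The counts and medians of the 10 genes are given beside those of all genes at the minimum signal, with no test of the group. In Sox2 against Flag, 0 of 10 members were called, against 0.131% of genes at the minimum signal called higher and 0.215% lower. Their median difference was -0.20, beside -0.14 for all those genes. Both scaled columns of Sox2 were below both of Flag at 6 of the 10, Gadd45b, Gadd45g, Tdg, Mbd4, Neil1 and Apex1, beside 28.3% of genes, and above at 0, beside 12.5%. Of 24 other base excision repair genes 0 were called, and the median of the 21 at the minimum was -0.24. Their ends were Neil3, a glycosylase of proliferating cells, at -0.56 and Polb, the gap-filling polymerase, at 0.36, the second with a mean signal under the minimum. Of 22 Gadd45 partners and demethylation genes 0 were called, and the median of the 19 at the minimum was -0.19. Their ends were Ddit3, a stress transcription factor, at -0.48 and Tet1, a methylcytosine dioxygenase, at 0.45. In each other comparison too, 0 of the 24 and 0 of the 22 genes were called.

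In Klf4 against Flag, 0 of 10 members were called, beside 1.43% of genes higher and 0.318% lower. The members' median was -0.23, against -0.10 for all genes at the minimum. Both Klf4 columns were below Flag at 5 of the 10, Gadd45b, Gadd45g, Tdg, Mbd4 and Parp1, beside 39.7% of genes, and above at 0, beside 16.9%. The other repair genes at the minimum had a median of -0.17, with Lig1, a replicative ligase, at -0.53 and Parg, which removes poly(ADP-ribose), at 0.15. The partner list had a median of -0.18, with Ing1, which binds H3K4me3 and recruits Gadd45a, lowest at -0.44; its highest gene, Apobec2, was under the minimum.

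In Oct4 against Flag, 0 of 10 members were called, beside 0.363% of genes higher and 0.133% lower. The median was -0.04, against 0.05 for all genes at the minimum. Both Oct4 columns were above Flag at Apex1 and Parp1, or 2 of 10, beside 24.8% of genes, and below it at Gadd45b and Gadd45g, beside 14.1%. The ends of the repair list were Neil3 at -0.34 and Polb at 0.35, and those of the partner list Npm1, a nucleolar protein, at -0.34 and Tet1 at 0.61.

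For the mutant Oct4 set against Flag, 0 of 10 members were called, beside 0.0192% of genes in each direction, and the median was -0.15 against -0.12 for all genes at the minimum. Gadd45b, Gadd45g and Parp1, or 3 of 10, had both columns below Flag, beside 23.5% of genes, and 0 had both above, beside 6.26%. The ends of the repair list were Rfc1, a subunit of the clamp loader, at -0.47 and Pold1, the catalytic subunit of a replicative polymerase, at 0.25. Those of the partner list were Cdk1, the mitotic kinase, at -0.43 and Apobec1, a cytidine deaminase whose signal was under the minimum.

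In SKO against Flag, 0 of 10 members were called, beside 2.2% of genes higher and 0.152% lower. The median was 0.01, against 0.07, and Gadd45b was the 1 member with both columns below Flag, beside 12.6% of genes, while 0 had both above, beside 32.5%. The ends of the repair list were Neil3 at -0.24 and Pold1 at 0.39, and those of the partner list Npm1 at -0.45 and Tet1 at 0.90.

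For Oct4-L80A set against the Oct4 label, whose library also had Sox2 signal, 0 of 10 members were called, beside 0.0178% of genes higher and 0.392% lower. The median was -0.13, against -0.11 for all genes at the minimum. Both columns were lower in Oct4-L80A at Gadd45g, Mbd4 and Parp1, or 3 of 10, beside 31% of genes, and higher at 0, beside 5.46%. The ends of the repair list were Polb at -0.47 and Neil3 at 0.20; in the partner list Tet1 was lowest at -0.47, and the highest, Apobec2, was under the minimum.

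Among the 3-factor conditions few genes were called. In SKO-L80A against SKO, 0 of 10 members were called, beside 0.0158% of genes higher and 0% lower, and the median was 0.01 against 0.00. Parp1 had both columns higher, beside 10.6% of genes, and Gadd45g both lower, beside 9.8%. In SKO+shBrg1 against SKO, 0 of 10 were called, beside 0.00781% of genes higher and 0% lower, and the median was 0.04 against 0.03. Smug1 and Parp1 had both columns higher with shBrg1, or 2 of 10, beside 11.2% of genes, and 0 had both lower, beside 10.3%. Mpg, the glycosylase of alkylated purines, was the highest of the repair list in both comparisons, at 0.44 in each, and Tet1 the lowest of the partner list, at -0.30 and -0.19; these comparisons share the SKO library. The other ends were Ung, the main uracil glycosylase, at -0.09 and Apobec1 at 0.19 in SKO-L80A against SKO, and Neil2 and Apobec2, both under the minimum, with shBrg1.

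With vitamin C, 0 of 10 members were called against SKO-L80A, beside 0% of genes higher and 0.016% lower. The median was -0.10, against -0.08, and both columns were below SKO-L80A at Tdg, Smug1, Neil1 and Apex1, or 4 of 10, beside 31.8% of genes, while 0 had both above, beside 3.67%. The ends of the repair list were Mpg at -0.28 and Neil3 at 0.25, and those of the partner list Foxo3, a stress-response transcription factor, at -0.25 and Atf4, another, at 0.14. With Gadd45a, 0 of 10 members were called against SKO-L80A, beside 0% of genes in each direction, and the median was -0.04 against -0.05. All 10 members had overlapping columns there, while 17.9% of genes had both columns lower and 5.52% both higher. Mpg was the lowest of the repair list at -0.26; Tet1 was the lowest of the partner list at -0.23, and its highest, Apobec2, was under the minimum. Both comparisons share the SKO-L80A library.

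The genes whose condition means were most like those of the Gadd45 genes were found among the 11447 genes by Pearson correlation over the 10 conditions, as a description. For Gadd45a they were Mfsd4a (0.97), Noc3l (0.96) and Fscn1 (0.96). For Gadd45b they were Jpt1 (0.97), Dph5 (0.97) and Sp2 (0.94), and for Gadd45g Snx3 (0.94), Polr3c (0.92) and Rnf115 (0.92). Polr3c and Rnf115 had nearly the same mean signal, 20.6164 and 20.6166, so they may not be separate measurements. With 10 points and this many genes, high values are easily reached.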

How the data were processed

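The deposited signal table gives a density for 21965 genes in 20 columns, 2 per condition, and the values were used as the authors deposited them. The submitters' processing notes name build mm10. They also list MACS2 2.1.0, Bowtie2 2.2.5, bedtools 2.25.0, deepTools, Trimmomatic 0.35, Picard, SAMtools 1.3.1 and cutadapt 1.13, with no role. The sources used here do not state the window or the scaling. Read numbers are absent, so precision is judged from the 2 columns.

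The columns of a condition were counted as 1 sample. Deviations of same-numbered columns correlated across genes in all 45 pairs of conditions (r from 0.188 to 0.702), so differences were taken within a column number. The pseudocount, 0.138, is the 10th percentile of values above 0. The 10 comparisons, size rule, lists and members were chosen with earlier results of these data known. All members are named; of each list, the highest and lowest gene are named where none passes the size rule, except 1 that is not reported here. The overlap of columns, the ranking of conditions and the comparison by column number were added after values were seen. The calculation was tested on simulated data. Symbols were matched to RefSeq (GRCm38.p6) for coordinates and promoters; all 10 matched. Python 3.11.15, NumPy 2.4.6, pandas 2.3.3 and statsmodels 0.14.6 were used. The alternatives were the pseudocount times or divided by 4, no minimum signal, no centring, quantile normalization, lowess (fraction 0.3, 3 iterations) and each column alone.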

Additional observations from a re-analysis of the deposited data

How the results depend on the processing

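No member was called in any of the 10 comparisons under any of the 8 alternatives. Dropping the minimum signal could not change a member, since all 10 had reached it in every comparison. At the main setting, at most 2.2% of genes were called in either direction. Of the 100 differences (10 genes in 10 comparisons), 14 were at least 0.3 in size, and none of these changed sign under any alternative. Among all 100, the sign changed in 17 without centring, 19 with quantile normalization, 21 with lowess, 17 with column 1 alone, 20 with column 2 alone, 1 and 2 with the larger and the smaller pseudocount, and 0 without the minimum signal. Over the settings, Gadd45b ran from -0.93 to -0.66 in Klf4 against Flag and from -0.87 to -0.22 in SKO against Flag, Gadd45g from -0.81 to -0.48 in Oct4-L80A against Flag and from -0.92 to -0.39 in Oct4-L80A against Oct4, Smug1 from -0.89 to -0.30 with vitamin C, and Gadd45a from 0.10 to 0.84 in SKO against Flag; the cause was not tested.

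The background counts over all genes depended more on the scaling. Called higher and lower were 274 and 19 genes in SKO against Flag, 1370 and 4 without centring and 125 and 41 with quantile normalization. They were 41 and 15 in Oct4 against Flag, 79 and 6 without centring, 28 and 27 with quantile normalization and 29 and 20 with lowess, and 2 and 44 in Oct4-L80A against Oct4, 0 and 171 without centring, 9 and 35 with quantile normalization and 6 and 35 with lowess. No paired analysis and no test were made, because each condition has 1 labelled library whose columns were counted as 1 sample. Small differences cannot be judged at an unknown depth.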

Other observations

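The condition means of the 10 genes were also set beside one another, as a description over 10 conditions that share scaling and, by pairs, factors. Of the 45 pairs of members, 38 had a positive Pearson correlation, with a median of 0.31. The highest was between Gadd45a and Xrcc1 (0.92), the only 2 members with all 5 conditions of 3 factors above the 5 others, followed by Neil1 with Apex1 (0.84) and Mbd4 with Parp1 (0.79). The lowest was between Gadd45b and Apex1 (-0.50). Pairs of other genes were not examined, so the count of positive pairs cannot be read as a trait of the members. The Xrcc1, Apex1 and Mbd4 values are those shared with Pinlyp, Osgep and Ift122. Gadd45b and Gadd45g both had their highest condition mean in Flag, at 30.1 and 19.6, whereas Gadd45a had it in SKO-L80A+Ga, at 36.9, with SKO at 36.9 beside it.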
